A study of Mus musculus with 24 samples.

Results

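The genes described here are 10 genes through which the ERK pathway, a growth factor signalling route, acts on transcription and restrains itself, measured in HC11 mouse mammary epithelial cells. They are the PEA3 group of ETS transcription factors (*Etv1*, *Etv4* and *Etv5*), the Sprouty genes *Spry1*, *Spry2* and *Spry4*, the Spred genes *Spred1* and *Spred2*, and the phosphatase genes *Dusp4* and *Dusp6*. They form a list of names, and their probes were all array probes, other than control spots, whose RefSeq accession belonged to 1 of these genes. This gave 12 probes for 10 of the 20145 genes with a symbol on the array. *Etv1* and *Etv4* had 2 probes each, and the brighter probe over all arrays stood for the gene.

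In this pathway, ligands such as EGF, amphiregulin and the FGFs bind receptor tyrosine kinases, which act through RAS and RAF proteins and the MEK kinases to activate the ERK kinases. Active ERK raises transcripts whose products lower its own activity, a negative feedback. Sprouty and Spred proteins act upstream, on the activation of RAS and RAF, while the DUSP4 protein removes phosphate from ERK and related kinases in the nucleus and DUSP6 does so for ERK in the cytoplasm. PEA3 factors are transcriptional activators whose own genes commonly follow FGF and EGF signalling. In the mammary gland, EGF family ligands and their receptors take part in the growth of the ducts.

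HC11 cells are an established line that came, by way of the COMMA-D line, from a Balb/c mouse in mid-pregnancy, and they make milk proteins under lactogenic hormones (+LH), here prolactin together with insulin and hydrocortisone. Expression was measured on 24 Agilent 1-colour mouse arrays in 9 groups. Undifferentiated cells that had not been given the differentiation treatment (−LH) had received a negative control siRNA (siNEG, labelled siNegative), a pair of siRNAs against *mPINC1.0* and *mPINC1.6*, splice forms of the long noncoding RNA *mPINC* (siPINC1.0/1.6, labelled siPINC1/6), or a pair against all of its splice forms (siPINC), with n = 2 cultures each. The same 3 siRNA groups were measured in +LH cells, with n = 3 cultures each. The other 3 groups, also +LH and n = 3, had been transduced with lentivirus for GFP (LeGO-GFP), for *mPINC1.0* and *mPINC1.6* together (LeGO-1.0/1.6, labelled LeGO-1/6), or for a deletion mutant of *mPINC* without the conserved regions (LeGO-DCR). The methods say that transduced cells were expanded, divided into aliquots and frozen before the experiments, and give no number of transductions. The arrays of a LeGO group may therefore be cultures of a shared transduced pool. If so, construct and pool cannot be told apart, and variation between transductions was not tested. No −LH arrays of transduced cells were used. Insulin is also in the growth and priming media, so prolactin and hydrocortisone are what the treatment adds. The growth medium of the line contains EGF, whereas the media listed for priming and hormone treatment do not and use another serum, and the medium of the −LH cells at harvest is not given in the sources used here. The hours of hormone treatment of the +LH arrays are not given there either, so the time in culture may also differ. Effects of the hormones, of EGF removal, of the serum and of any difference in time therefore cannot be told apart between +LH and −LH cells.

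The *mPINC* probe checks the labels. In −LH cells it had a log2 signal of 7.44 ± 0.047 (SD, n = 2) with siNEG, against 6.33 ± 0.084 with siPINC1.0/1.6 and 6.28 ± 0.164 with siPINC. In +LH cells it was close to background, at 4.87 ± 0.134 (SD, n = 3) with siNEG, against 5.06 ± 0.211 with siPINC1.0/1.6 and 4.37 ± 0.338 with siPINC. It was thus not lower in the +LH arrays labelled siPINC1.0/1.6 than in siNEG arrays, and these groups are called by their labels throughout. It reached 13.44 ± 0.086 in LeGO-1.0/1.6 cells, against 6.07 ± 0.263 in LeGO-GFP and 6.06 ± 0.121 in LeGO-DCR cells. The probe therefore did not show the mutant, and whether it lies in the deleted part was not tested. By RT-PCR and qPCR, the paper found the mutant RNA strongly overexpressed, at a level not far from that of the full-length forms. Its qPCR also showed lower *mPINC* after siRNA transfection, without stating in the legend whether hormones had been given. Between 24021 and 35798 of the 55681 probes per array were well above background. The epithelial markers *Krt8*, *Krt18*, *Krt5*, *Krt14*, *Epcam* and *Cdh1* were so on all 24 arrays, the endothelial marker *Cdh5* on 1 and the leukocyte marker *Ptprc* on 7. Of the fibroblast and endothelial markers, *Col3a1*, *Pdgfra*, *Pdgfrb* and *Pecam1* were well above background on all 24 arrays and *Col1a1* on 22. The arrays lay on 3 slides. Slide 1 held all −LH arrays with replicate 1 of siNEG +LH and of LeGO-GFP, slide 2 the other +LH siRNA arrays and slide 3 the other LeGO arrays.

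Promoter sequences are shown for *Dusp6* and *Etv5*, the members for which a test called the response to siPINC1.0/1.6 different between +LH and −LH cells (below). Each is the RefSeq sequence (build GRCm38.p6, on the strand of the gene, 5′ to 3′) from 250 bases before to 50 bases after an annotated start, and capitals mark the core of an ETS site, GGAA, or TTCC on the other strand. *Dusp6* has 1 such window, at chr10:99262981-99263280 on the plus strand, and *Etv5* has 2, at chr16:22438319-22438618 and chr16:22439521-22439820 on the minus strand.
*Dusp6*: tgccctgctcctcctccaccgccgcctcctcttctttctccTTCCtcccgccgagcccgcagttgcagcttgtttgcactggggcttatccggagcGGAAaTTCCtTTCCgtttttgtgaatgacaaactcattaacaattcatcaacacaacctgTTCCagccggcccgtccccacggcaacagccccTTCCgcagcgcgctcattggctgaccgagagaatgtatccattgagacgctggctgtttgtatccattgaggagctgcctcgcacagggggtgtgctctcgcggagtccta
*Etv5*, first window: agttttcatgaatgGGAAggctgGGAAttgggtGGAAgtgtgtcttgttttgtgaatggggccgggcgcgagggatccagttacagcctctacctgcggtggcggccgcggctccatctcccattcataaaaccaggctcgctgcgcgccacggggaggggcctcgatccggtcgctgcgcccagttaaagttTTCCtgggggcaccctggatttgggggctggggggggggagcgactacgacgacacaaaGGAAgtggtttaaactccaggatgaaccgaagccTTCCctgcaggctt
*Etv5*, second window: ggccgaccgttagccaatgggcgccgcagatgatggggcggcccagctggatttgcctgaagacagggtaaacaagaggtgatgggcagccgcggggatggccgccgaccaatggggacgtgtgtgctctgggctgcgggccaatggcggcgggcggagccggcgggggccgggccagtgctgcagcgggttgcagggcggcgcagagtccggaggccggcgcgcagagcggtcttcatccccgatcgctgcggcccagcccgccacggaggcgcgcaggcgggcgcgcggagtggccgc
The first window of *Etv5* and that of *Dusp6* held 6 cores each, and the second window of *Etv5* held 0. The core is common, since 96% of the 32851 promoters of the table hold it, and it was searched after the other motifs had been seen. A longer ETS motif, CCGGAAG, the AP-1 motif TGANTCA, the CRE motif TGACGTCA and the STAT motif TTCNNNGAA were searched on both strands, with N for any base. They were found in 8.86%, 7.81%, 1.79% and 8.3% of all promoters and in 0 of the 9 windows of members, which covered *Dusp6*, *Etv1*, *Etv5*, *Spred1*, *Spred2*, *Spry1* and *Spry2*. These matches describe letters in the windows and are not evidence of a bound site.

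Of the 10 genes, 9 gave a usable signal. The probe for *Spry4* was well above background on 0 of the 24 arrays, with log2 signals between 1.85 and 2.64, so no fold change is given for it. Its values still entered every fit and its result counts as not called. The probes of *Etv4*, *Etv5*, *Dusp4*, *Dusp6*, *Spred1*, *Spry1* and *Spry2* were well above background on all arrays, that of *Etv1* on 23 and that of *Spred2* on 22. Within a probe, the range of the 9 group means on the log2 scale was 6.25 for *Dusp4*, 6.07 for *Etv5*, 5.93 for *Etv4*, 3.63 for *Spred2*, 3.25 for *Dusp6*, 2.30 for *Etv1*, 2.18 for *Spred1*, 1.35 for *Spry1* and 1.25 for *Spry2*. The mean SD within groups lay between 0.057 for *Dusp6* and 0.284 for *Spred2*. Signals of different probes are not compared with each other.

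**Figure D1:**
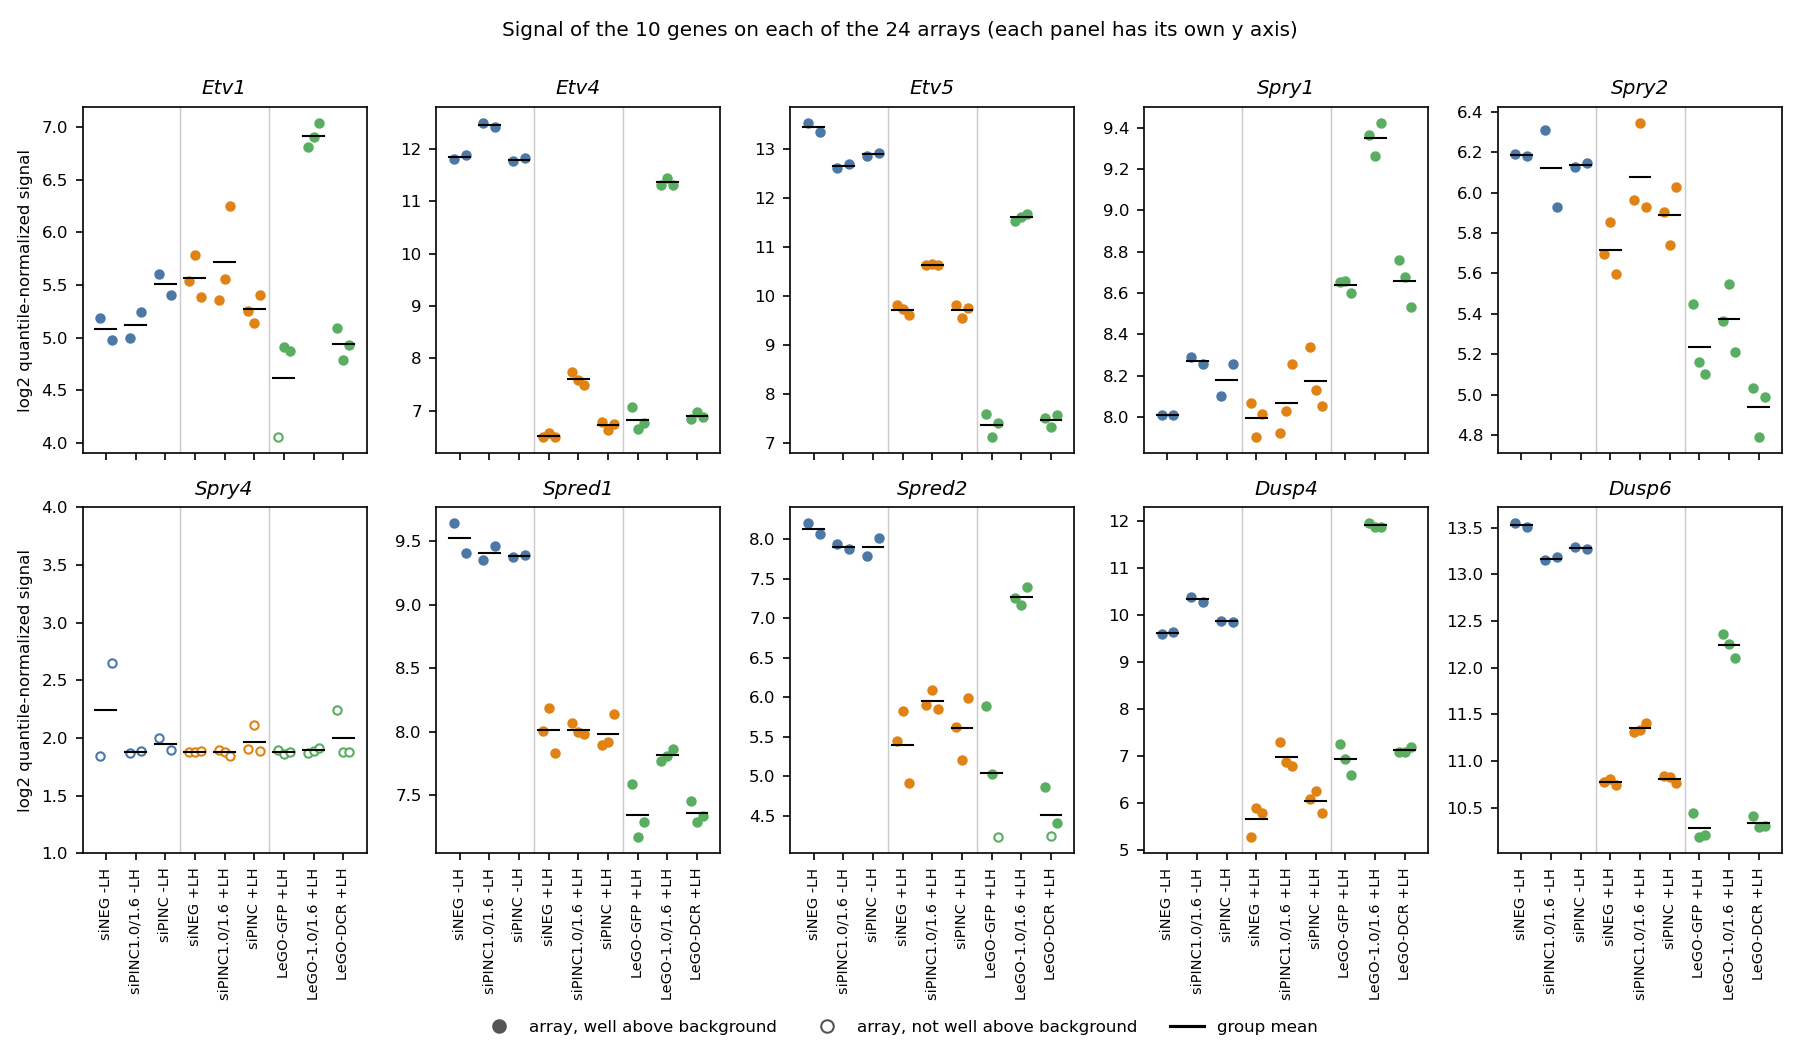
Log2 quantile-normalized signal (y axis, a separate scale for each gene) of the 10 genes on each of 24 arrays, by group (x axis: blue, −LH siRNA groups, n = 2; orange, +LH siRNA groups, n = 3; green, +LH LeGO groups, n = 3); points are arrays, open where the probe was not well above background, and lines are group means. *Etv4* drops from 11.85 to 6.53 between siNEG −LH and siNEG +LH cells and stands at 11.36 in LeGO-1.0/1.6 cells.

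The first question was how these genes differ between undifferentiated and hormone-treated control cells. In siNEG cells, 7 of the 10 genes were lower in +LH than in −LH cells and none was higher (limma, Benjamini-Hochberg adjusted p under 0.05). Of all 55681 probes, 13.6% were lower and 13.5% higher. Of the 21265 probes that were well above background on all arrays, as most members were, 28.2% were lower and 29.1% higher. The median log2 fold change was −2.13 over the members and 0.01 over all probes. In such extracts of whole cultures, fewer cells that express a gene and less RNA per cell cannot be told apart.

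Among the PEA3 factors, *Etv4* fell most. Fold changes are given with their standard error (SE). Its log2 signal was 11.81 and 11.88 in siNEG −LH cells and 6.50, 6.58 and 6.51 in siNEG +LH cells. The groups were far apart, and the log2 fold change was −5.32 (SE 0.078, adjusted p = 4.55e-11 from limma), a 39.9-fold difference. The second *Etv4* probe, 9.34 and 9.53 in −LH cells, was well above background on none of the siNEG +LH arrays and was there at least 37.1-fold lower. For this bound, a +LH array on which the dim probe fell short of the faintest probe well above background was given the signal of that faintest probe. *Etv5* had 13.54 and 13.36 in −LH cells and 9.83, 9.74 and 9.62 in +LH cells. These values too did not overlap, with a log2 fold change of −3.72 (SE 0.091, adjusted p = 7.43e-10). *Etv1* behaved otherwise, at 5.19 and 4.98 in −LH cells against 5.54, 5.79 and 5.39 in +LH cells. Its groups did not overlap, but the log2 fold change of 0.49 (95% confidence interval −0.02 to 1.00) did not pass the test (adjusted p = 0.169).

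Both phosphatase genes fell. *Dusp4* went from 9.59 and 9.65 in −LH cells to 5.27, 5.90 and 5.80 in +LH cells, a log2 fold change of −3.96 (SE 0.206, adjusted p = 1.28e-07). *Dusp6* went from 13.55 and 13.51 to 10.78, 10.81 and 10.75, a log2 fold change of −2.75 (SE 0.051, adjusted p = 1.38e-10). The spread of *Dusp6* among +LH arrays was small against this difference, whereas *Dusp4* was lowest on replicate 1.

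Both Spred genes fell as well, while the Sprouty genes moved little. *Spred2* had 8.20 and 8.06 in −LH cells and 5.44, 5.82 and 4.91 in +LH cells, with a log2 fold change of −2.74 (SE 0.261, adjusted p = 1.31e-05), or −1.59 with normexp, another background correction. *Spred1* had 9.64 and 9.41 against 8.01, 8.19 and 7.83, with a log2 fold change of −1.52 (SE 0.113, adjusted p = 1.98e-06). Neither gene had overlapping groups. *Spry2* was at 6.19 and 6.18 in −LH and at 5.70, 5.85 and 5.60 in +LH cells, and its log2 fold change of −0.47 passed narrowly (adjusted p = 0.0415). That call was lost in 10 of 17 alternative analyses, where its adjusted p reached up to 0.148. *Spry1* was at 8.01 on both −LH arrays and at 8.07, 7.90 and 8.02 on the +LH arrays, so the groups overlapped, and its log2 fold change of −0.02 had a 95% confidence interval of −0.26 to 0.23.

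Replicate 1 was the sole siNEG +LH array on the slide of the −LH arrays. Within that slide the log2 fold changes were −5.35 for *Etv4*, −3.62 for *Etv5*, −4.35 for *Dusp4*, −2.75 for *Dusp6*, −2.69 for *Spred2* and −1.52 for *Spred1*. These values rest on that single +LH array, and so do those of a joint fit of the 24 arrays that includes slide, which are the same by construction. The limma tests take the spread from other groups and assume that the lone array varies like them. On that assumption the 6 genes were called within the slide (adjusted p between 0.000795 and 0.00398), and *Spry2*, at −0.49, was not (adjusted p = 0.14). Epithelial markers moved between the same groups, with log2 fold changes of 1.40 for *Krt18* and 0.86 for *Krt8*, keratins of luminal cells, and −2.72 for *Krt5* and −1.11 for *Krt14*, keratins of basal cells. All 4 fibroblast markers moved as well, with *Col3a1* at 1.66, *Pdgfra* at 1.31, *Pdgfrb* at 0.87 and *Col1a1* at −2.94. The part of these changes in the result was not tested.

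The second question was what overexpression of *mPINC1.0* and *mPINC1.6* does to these genes in hormone-treated cells. In LeGO-1.0/1.6 cells, 8 of the 10 genes were higher than in LeGO-GFP cells and none was lower, whereas 14.5% of all probes were higher and 15.8% lower. Of the probes well above background on all arrays, 28.1% were higher and 32% lower. The median log2 fold change was 2.09 over the members and −0.01 over all probes. In LeGO-DCR cells, 0 of the 10 genes differed from LeGO-GFP cells by limma at an adjusted p under 0.05, where 0.0736% of all probes did. At an unadjusted p under 0.05, 0 of the 10 and 4.52% of all probes passed. The methods' t-test called 0 of the 10. Against LeGO-DCR cells, 9 of the 10 genes were higher in LeGO-1.0/1.6 cells, where 14.5% of all probes were higher. The last comparison and the first share the LeGO-1.0/1.6 arrays.

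*Dusp4* had the largest rise of the members. Its log2 signal was 7.26, 6.95 and 6.61 in LeGO-GFP cells, 7.08, 7.10 and 7.19 in LeGO-DCR cells and 11.96, 11.88 and 11.89 in LeGO-1.0/1.6 cells. The LeGO-1.0/1.6 arrays stood apart from the other 6, with a log2 fold change of 4.97 against LeGO-GFP (SE 0.150, adjusted p = 5.88e-07), or 31.4-fold. The LeGO-DCR difference of 0.18 had a 95% confidence interval of −0.17 to 0.54. *Dusp6* was at 10.45, 10.18 and 10.21 in LeGO-GFP, 10.41, 10.30 and 10.31 in LeGO-DCR and 12.36, 12.26 and 12.11 in LeGO-1.0/1.6 cells. It rose by 1.96 on the log2 scale (SE 0.095, adjusted p = 4.93e-06), and its LeGO-DCR difference of 0.06 had an interval of −0.17 to 0.28.

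All 3 PEA3 genes rose in LeGO-1.0/1.6 cells. *Etv4* had 7.08, 6.65 and 6.77 in LeGO-GFP, 6.85, 6.97 and 6.89 in LeGO-DCR and 11.31, 11.45 and 11.32 in LeGO-1.0/1.6 cells, and its log2 fold change was 4.52 (SE 0.112, adjusted p = 2.63e-07). Its second probe was not well above background in LeGO-GFP cells and was at least 28.6-fold higher in LeGO-1.0/1.6 cells. *Etv5* had 7.59, 7.12 and 7.42 in LeGO-GFP, 7.52, 7.34 and 7.58 in LeGO-DCR and 11.54, 11.61 and 11.68 in LeGO-1.0/1.6 cells, and its log2 fold change was 4.23 (SE 0.125, adjusted p = 5.51e-07). For both genes the LeGO-DCR arrays lay among the LeGO-GFP arrays, with differences of 0.07 (95% confidence interval −0.19 to 0.33) for *Etv4* and 0.10 (−0.19 to 0.40) for *Etv5*. *Etv1* had 4.06, 4.91 and 4.88 in LeGO-GFP, 5.10, 4.79 and 4.93 in LeGO-DCR and 6.81, 6.90 and 7.04 in LeGO-1.0/1.6 cells. It rose by 2.30 (SE 0.229, adjusted p = 0.000179), against LeGO-GFP values of which replicate 1 was not well above background. Without that array the rise was 2.02. It was 1.07 with normexp background correction and 1.14 as the mean of both *Etv1* probes, and called in each. The second *Etv1* probe was well above background on 0 of the 24 arrays, so that mean includes a probe without usable signal.

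Both Spred genes and *Spry1* rose as well, whereas *Spry2* did not pass the test. *Spred2* had 5.88, 5.02 and 4.22 in LeGO-GFP, 4.86, 4.25 and 4.41 in LeGO-DCR and 7.26, 7.16 and 7.39 in LeGO-1.0/1.6 cells. The LeGO-GFP arrays were widely spread, 1 of them not well above background, and the log2 fold change was 2.23 (SE 0.389, adjusted p = 0.00348), or 1.14 with normexp background correction. *Spry1* had 8.65, 8.66 and 8.60 in LeGO-GFP, 8.76, 8.68 and 8.53 in LeGO-DCR and 9.36, 9.26 and 9.42 in LeGO-1.0/1.6 cells, and it rose by 0.71 (SE 0.073, adjusted p = 0.00021). *Spred1* had 7.59, 7.17 and 7.29 in LeGO-GFP and 7.77, 7.81 and 7.87 in LeGO-1.0/1.6 cells, which did not overlap, with a log2 fold change of 0.47 (adjusted p = 0.0147). Leaving out LeGO-GFP replicate 3 raised that adjusted p to 0.052, and leaving out LeGO-1.0/1.6 replicate 3 to 0.0514. *Spry2* had 5.45, 5.16 and 5.10 in LeGO-GFP and 5.36, 5.55 and 5.21 in LeGO-1.0/1.6 cells, which overlapped, and its log2 fold change of 0.14 had a 95% confidence interval of −0.17 to 0.44. Against LeGO-DCR, at 5.04, 4.79 and 4.99, *Spry2* was higher by 0.44 (adjusted p = 0.0393), a call that 11 of 18 alternative analyses did not make.

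Within slide 3, without LeGO-GFP replicate 1, the log2 fold changes of LeGO-1.0/1.6 against LeGO-GFP were 5.13 for *Dusp4*, 4.65 for *Etv4*, 4.34 for *Etv5*, 2.65 for *Spred2*, 2.04 for *Dusp6*, 2.02 for *Etv1*, 0.72 for *Spry1* and 0.58 for *Spred1*, and all 8 were called. Other measures moved with the same groups. Of the 6 epithelial markers, 5 were lower in LeGO-1.0/1.6 than in LeGO-GFP cells, among them *Krt5* by a log2 fold change of −2.76 and *Epcam* by −1.06. Of the 4 fibroblast markers, *Col3a1* and *Pdgfrb* were lower, at −4.12 and −1.90, *Pdgfra* was higher, at 0.96, and *Col1a1*, at 0.42, did not pass. The milk protein genes *Csn2* and *Wap* were well above background on all LeGO-GFP and LeGO-DCR arrays and on 0 of the LeGO-1.0/1.6 arrays. The part of these changes in the result was not tested.

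**Figure D2:**
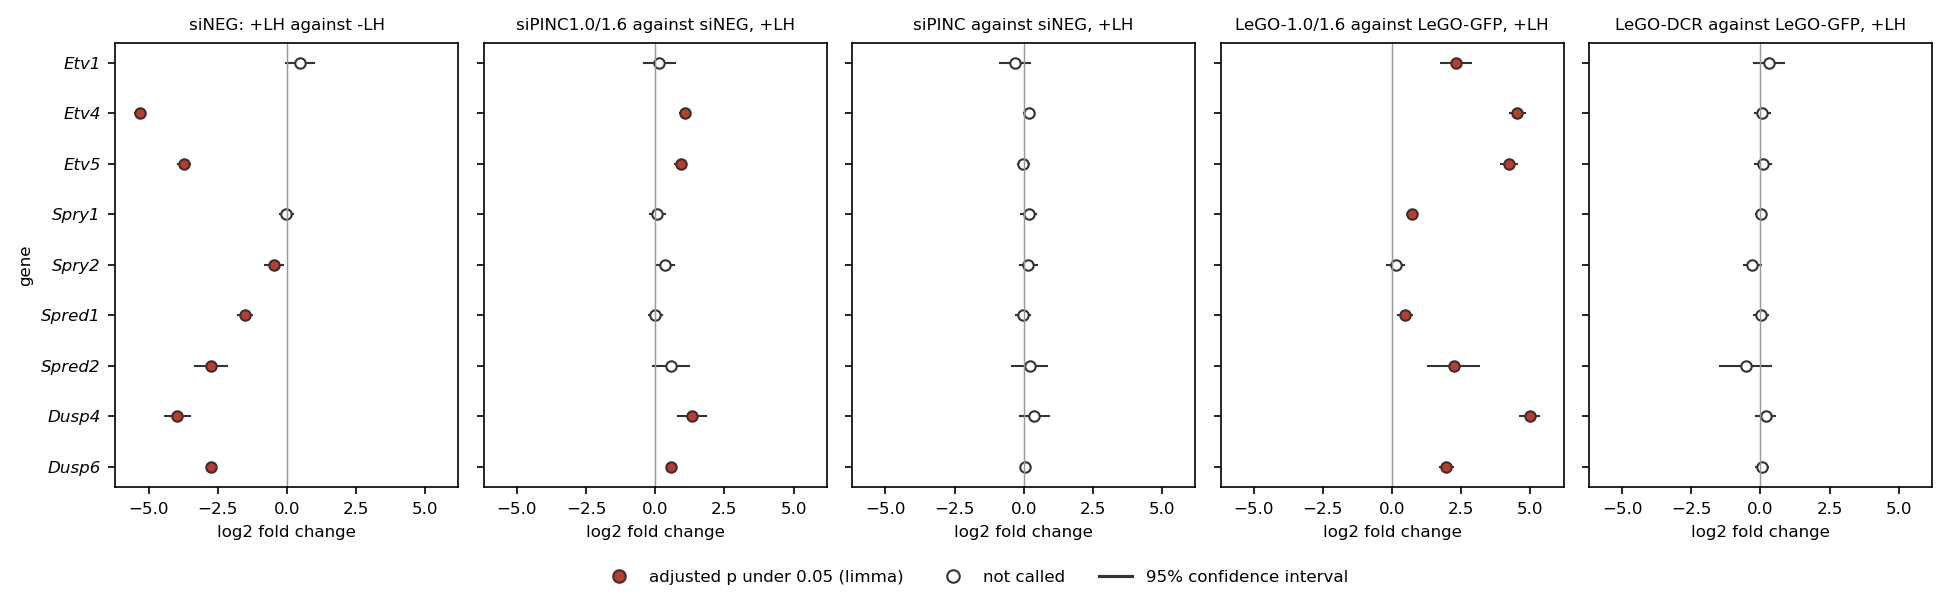
Log2 fold change (x axis) of the 9 genes with a usable signal (y axis) in 5 comparisons, with 95% confidence intervals from limma as lines; red points passed an adjusted p of 0.05, and white points did not. *Etv4* and *Dusp4* lie at −5.32 and −3.96 in the hormone comparison and at 4.52 and 4.97 in LeGO-1.0/1.6 cells, while all LeGO-DCR points are white and lie between −0.54 and 0.32.

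The order of the 9 group means shows where each gene stood. For *Dusp6*, *Etv5* and *Spred1* the 3 −LH groups were highest, and LeGO-GFP and LeGO-DCR, whose arrays overlapped, were lowest. *Spred2* also had the 3 −LH groups on top and LeGO-DCR at the bottom. LeGO-1.0/1.6 cells came next after the −LH groups for *Dusp6*, at 12.24, for *Etv5*, at 11.61, and for *Spred2*, at 7.27. The same held for *Etv4*, at 11.36, below siPINC −LH cells at 11.79. For *Dusp4* the LeGO-1.0/1.6 cells came first, at 11.91, above siPINC1.0/1.6 −LH cells at 10.34. For each of these genes, the LeGO-1.0/1.6 arrays did not overlap with their neighbours in the order. *Etv5* also differed between the 2 kinds of +LH control cells, at 9.73 in siNEG and 7.38 in LeGO-GFP cells. *Dusp6*, *Spred1*, *Spry2* and *Etv1* were likewise lower in LeGO-GFP cells without overlap. *Dusp4*, *Etv4* and *Spry1* were higher there without overlap, and *Spred2* overlapped. This is a description without a test, since these cells differ in transfection, transduction and slide. *Spry1* and *Etv1* had LeGO-1.0/1.6 cells on top, at 9.35 and 6.92, and the remaining 8 groups of *Etv1* each overlapped with the next in order.

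The third question was how these genes differ between the siRNA groups in hormone-treated cells. The *mPINC* probe, close to background there, was not lower in the siPINC1.0/1.6 than in the siNEG arrays. In the +LH arrays labelled siPINC1.0/1.6, 4 of the 10 genes were higher than in siNEG cells and none was lower, whereas 2.09% of all probes were higher and 1.75% lower. Of the probes well above background on all arrays, 4.85% were higher. The median log2 fold change was 0.46 over the members and −0.01 over all probes. In +LH siPINC cells 0 of the 10 genes and 0.681% of all probes were called. At an unadjusted p under 0.05 these were 1 of the 10 genes and 10.1% of all probes. The methods' t-test, again judged by an adjusted p under 0.05, called 0 of the 10. Both comparisons share the siNEG arrays.

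*Dusp4* had 5.27, 5.90 and 5.80 with siNEG, 7.31, 6.87 and 6.78 with siPINC1.0/1.6 and 6.08, 6.25 and 5.79 with siPINC. Its siPINC1.0/1.6 arrays were above all others, with a log2 fold change of 1.33 against siNEG (SE 0.219, adjusted p = 0.0223). That call depended on single arrays, since the adjusted p was 0.0531 without siNEG replicate 1, 0.0506 without siNEG replicate 2, 0.0713 without siPINC1.0/1.6 replicate 1 and 0.0658 without siPINC1.0/1.6 replicate 2. *Etv4* had 6.50, 6.58 and 6.51 with siNEG, 7.73, 7.59 and 7.48 with siPINC1.0/1.6 and 6.80, 6.64 and 6.75 with siPINC. It rose by 1.07 in siPINC1.0/1.6 cells (SE 0.077, adjusted p = 0.000884) and was called in all 18 alternative analyses.

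*Etv5* and *Dusp6* rose too. *Etv5* had 9.83, 9.74 and 9.62 with siNEG, 10.64, 10.66 and 10.64 with siPINC1.0/1.6 and 9.82, 9.57 and 9.76 with siPINC, and its log2 fold change in siPINC1.0/1.6 cells was 0.92 (SE 0.083, adjusted p = 0.00204). *Dusp6* had 10.78, 10.81 and 10.75 with siNEG, 11.31, 11.34 and 11.41 with siPINC1.0/1.6 and 10.84, 10.83 and 10.77 with siPINC, with a log2 fold change of 0.57 (SE 0.048, adjusted p = 0.0015). Both were called in all 18 alternatives, and in both the siPINC arrays overlapped with the siNEG arrays. Within slide 2 the log2 fold changes were 1.06 for *Etv4*, 0.97 for *Etv5* and 0.57 for *Dusp6*, all called, and 1.14 for *Dusp4* (adjusted p = 0.0531). The milk protein gene *Csn2* was lower in siPINC1.0/1.6 cells, with a mean log2 signal of 9.74 against 10.94 in siNEG cells, while *Ltf* (lactoferrin) was higher, at 10.73 against 9.64. Of the epithelial markers *Krt5* was higher by 0.59, *Krt14* higher by 0.55 and *Krt18* lower, at −0.56. Of the fibroblast markers, *Col3a1* was higher by 0.99 and *Pdgfra* lower, at −0.45. The part of these changes was not tested.

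The remaining members did not pass. The log2 fold changes in siPINC1.0/1.6 cells were 0.56 for *Spred2* (95% confidence interval −0.09 to 1.20), 0.36 for *Spry2* (0.04 to 0.69), 0.15 for *Etv1* (−0.40 to 0.70), 0.07 for *Spry1* (−0.19 to 0.34) and 0.01 for *Spred1* (−0.24 to 0.26). A direct test of the siRNA sets in +LH cells called 3 genes higher with siPINC1.0/1.6 than with siPINC, where 0.442% of all probes were higher. They were *Etv5* by 0.93 (adjusted p = 0.00785), *Etv4* by 0.87 (adjusted p = 0.00769) and *Dusp6* by 0.54 (adjusted p = 0.00785). *Dusp4* was at 0.94 (95% confidence interval 0.43 to 1.46, adjusted p = 0.149). The methods' t-test, a test per probe without shared variance, called 0 of them at an adjusted p under 0.05. The study's own thresholds on p and fold change were not applied.

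The last question was what the same siRNAs do in undifferentiated cells. In siPINC1.0/1.6 −LH cells, 2 of the 10 genes were higher and 1 lower than in siNEG cells, where 1.52% of all probes were higher and 1.45% lower. *Dusp4* had 9.59 and 9.65 in siNEG and 10.39 and 10.29 in siPINC1.0/1.6 cells, a log2 fold change of 0.72 (SE 0.062, adjusted p = 0.0339). *Etv4* had 11.81 and 11.88 against 12.50 and 12.42, a log2 fold change of 0.61 (SE 0.063, adjusted p = 0.0394). *Etv5* went the other way, from 13.54 and 13.36 to 12.61 and 12.69, a log2 fold change of −0.80 (SE 0.088, adjusted p = 0.041). *Dusp6* had 13.55 and 13.51 in siNEG and 13.15 and 13.18 in siPINC1.0/1.6 cells, and its log2 fold change of −0.36 (SE 0.052) narrowly missed the threshold (adjusted p = 0.0561). The fibroblast markers *Col1a1*, *Col3a1* and *Pdgfra* were lower in these siPINC1.0/1.6 −LH cells, with log2 fold changes of −1.79, −1.46 and −1.02, and their part was not tested.

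With 2 arrays in a group, leaving out 1 array leaves a group of 1, and the test then takes the spread from the other groups and assumes that the lone array varies like them. Leaving out either siNEG −LH replicate or either siPINC1.0/1.6 −LH replicate left 0 genes called, with adjusted p between 0.0945 and 0.143 for *Dusp4*, *Etv4* and *Etv5*, while the log2 fold changes stayed between 0.67 and 0.76, 0.57 and 0.65, and −0.89 and −0.71. In siPINC −LH cells 0 of the 10 genes and 0% of all probes were called, and 4 of the 10 and 9.68% of all probes passed an unadjusted p under 0.05. The methods' t-test, again judged by adjusted p, called 0. With 2 arrays in a group it also called 0 for siPINC1.0/1.6 −LH cells, where limma called 3. Its results of 0 in −LH cells therefore cannot decide whether genes changed. There *Etv5* was at 12.87 and 12.92, a log2 fold change of −0.55 (95% confidence interval −0.79 to −0.31, adjusted p = 0.248), and *Dusp6* at 13.29 and 13.27, a log2 fold change of −0.25 (−0.39 to −0.11, adjusted p = 0.312). Between the siRNA sets in −LH cells 0 of the 10 genes and 0.018% of all probes were called, with 3 of the 10 and 14.2% of all probes at an unadjusted p under 0.05 and 0 of the 10 by the methods' t-test. *Etv4* came closest, at 0.67 (95% confidence interval 0.50 to 0.85, adjusted p = 0.0746).

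Whether the siPINC1.0/1.6 effect itself differed between −LH and +LH cells was tested by an interaction term over the 15 siRNA arrays. It was called for 2 of the 10 genes, both with the more positive effect in +LH cells, where 2.08% of all probes were called in that direction. For *Etv5* the difference between the effects was 1.72 on the log2 scale (SE 0.128, adjusted p = 0.000119), from −0.80 in −LH to 0.92 in +LH cells. For *Dusp6* it was 0.93 (SE 0.072, adjusted p = 0.000124), from −0.36 to 0.57. Both calls were made in all 20 alternative analyses. The interaction was not called for *Dusp4*, at 0.61 (95% confidence interval −0.04 to 1.26, adjusted p = 0.446), nor for *Etv4*, at 0.46 (0.21 to 0.71, adjusted p = 0.0554). The second *Etv4* probe gave 1.38 (adjusted p = 0.0457), but none of the siNEG +LH arrays had it well above background. For siPINC the interaction was called for 0 of the 10 genes and for 0.503% of all probes, with 4 of the 10 genes and 7.24% of all probes at an unadjusted p under 0.05. Its values were 0.54 for *Etv5* (adjusted p = 0.157) and 0.28 for *Dusp6* (adjusted p = 0.197). The −LH and +LH arrays differed in slide, apart from siNEG +LH replicate 1.

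**Figure D3:**
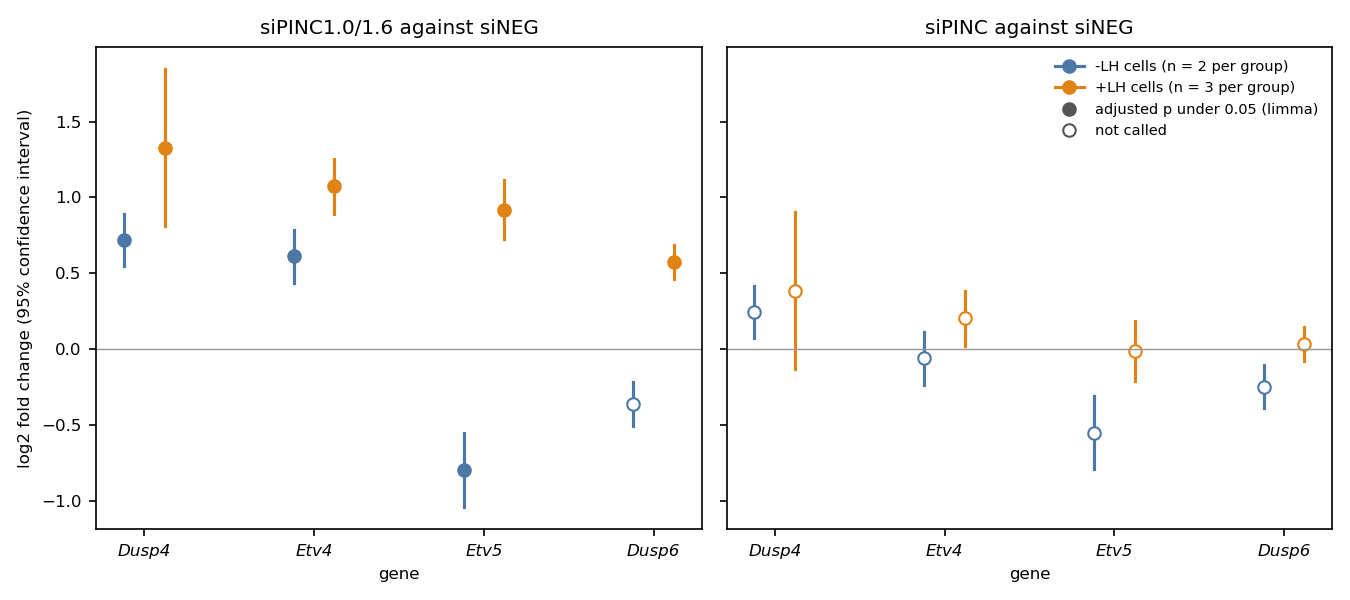
Log2 fold change against siNEG with its 95% confidence interval (y axis) for 4 genes (x axis) under each siRNA set, in −LH cells (blue, n = 2 per group) and +LH cells (orange, n = 3 per group); filled points passed an adjusted p of 0.05 in limma. Under siPINC1.0/1.6, *Etv5* goes from −0.80 to 0.92 and *Dusp6* from −0.36 to 0.57, whereas *Dusp4* and *Etv4* are above 0 in both states.

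The other genes of the pathway were followed in 6 lists of 75 genes. Between siNEG −LH and siNEG +LH cells, 22 of them were higher and 26 lower in +LH cells, beside 13.5% higher and 13.6% lower of all probes, and 29.1% and 28.2% of the probes well above background on all arrays. Differences between the lists were not tested. Of 8 EGF family ligands, 6 were lower and 1 higher. *Areg*, which encodes amphiregulin, was at least 17.5-fold lower, *Epgn* (epigen) had a log2 fold change of −3.04, *Nrg1* (neuregulin) −2.76 and *Hbegf* −2.69. Of 16 other transcripts that ERK induces, 9 were lower and 3 higher. Among them were the AP-1 subunit gene *Fosl1*, at least 2.08-fold lower, and *Epha2*, *Myc* and *Plaur* with log2 fold changes of −3.05, −3.02 and −2.50. Of 16 genes of the kinase cascade 6 were higher and 3 lower, the largest at 0.93 for *Map2k1*, which encodes a MEK kinase. Of 14 other ETS factors 6 were higher and 5 lower, led by the epithelial factors *Ehf* at 3.65, *Elf5* at 1.73 and *Elf3* at 1.14. Of 12 other inhibitors 2 were higher and 2 lower, with the phosphatase gene *Dusp9* at least 4.87-fold and *Il17rd* at least 2.90-fold lower and *Dusp1* up by 1.09. Of 9 receptor genes 4 were higher and 1 lower, with *Fgfr2* at 1.19 and *Met* at −0.87.

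In LeGO-1.0/1.6 against LeGO-GFP cells, 26 of the 75 genes were higher and 19 lower, beside 14.5% higher and 15.8% lower of all probes. Of the probes well above background on all arrays, 28.1% were higher and 32% lower. Of 8 EGF family ligands, 6 were higher and none was lower. Their log2 fold changes included 4.95 for *Areg*, 4.29 for *Nrg1*, 3.41 for *Hbegf* and 2.23 for *Ereg* (epiregulin). Of the other ERK-induced transcripts 9 were higher and 2 lower, with *Fosl1* at 3.95, *Plaur* at 2.89, *Epha2* at 2.40 and *Myc* at 1.64. Of the other inhibitors 6 were higher and 1 lower, with *Dusp9* at 2.75, *Il17rd* at 2.62 and *Dusp1* at −1.49. In the cascade 2 of 16 genes were higher and 6 lower, none of these 8 beyond 0.74 in size, the value of *Sos2*, and *Sos1*, at −1.43, did not pass the test. Of the receptors 2 were higher and 5 lower, among them *Fgfr2* at −1.12 and *Erbb2* at −1.10. Of the other ETS factors 1 was higher and 5 lower, with *Elf5*, a factor of milk-secreting cells, at −5.47 and *Ehf* at −1.86. In LeGO-DCR against LeGO-GFP cells 0 of the 75 genes were called by limma, where 0.0736% of all probes were.

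**Figure D4:**
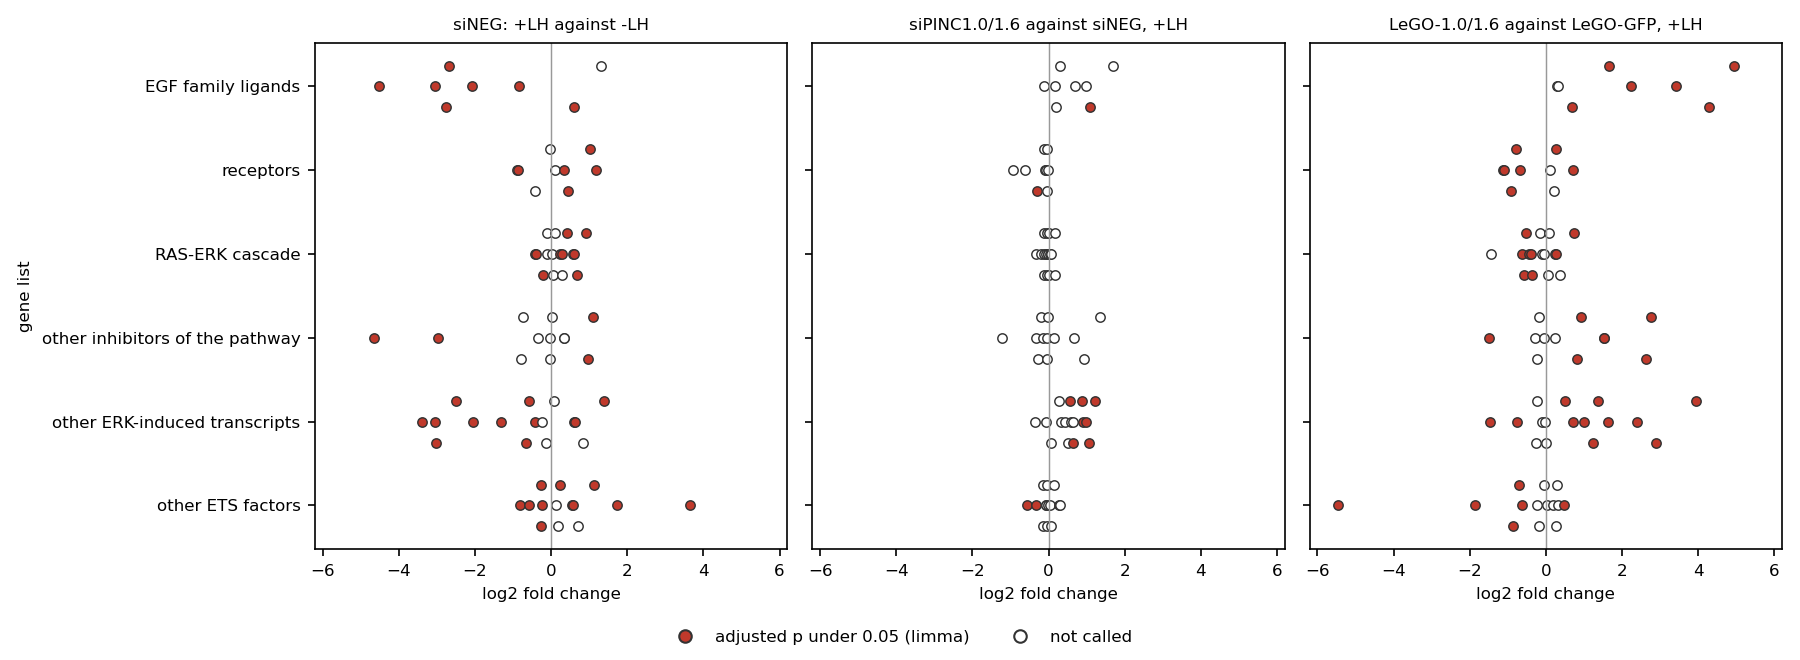
Log2 fold change (x axis) of each of the 75 other pathway genes, 1 point a gene, in 6 lists (y axis) and 3 comparisons; red points passed an adjusted p of 0.05 in limma, and white points did not. In the hormone comparison 6 of 8 EGF family ligands are red and below 0, and in LeGO-1.0/1.6 cells 6 of 8 are red and above 0.

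The siRNA comparisons moved fewer of these genes. In +LH siPINC1.0/1.6 cells 7 of 16 other ERK-induced transcripts were higher and none was lower, among them *Plaur* at 1.21, *Egr2* at 1.06, *Myc* at 0.98 and *Epha2* at 0.90, and 1 of 8 ligands was higher, *Ereg* at 1.09. Lower were the receptor gene *Fgfr2*, at −0.31, and the ETS factors *Ehf*, at −0.56, and *Elf5*, at −0.33, while *Ets2* was higher by 0.26. No cascade gene and no other inhibitor was called there. Of the 75 genes 9 were higher and 3 lower, where 2.09% and 1.75% of all probes were. In +LH siPINC cells 3 of the 75 genes were called, where 0.681% of all probes were called in either direction. All 3 were higher, *Plaur* by 0.85, *Ccnd1* by 0.51 and *Elf5* by 0.43, and none was lower. In −LH siPINC1.0/1.6 cells 4 of 8 ligands were higher, *Hbegf* at 1.62, *Epgn* at 1.41, *Ereg* at 1.24 and *Nrg1* at 0.99, and of the ERK-induced transcripts 3 were higher and 1 lower, with *Fosl1* at 1.85, *Plaur* at 1.73, *Myc* at 0.63 and *Egr1* at −0.70. The inhibitor genes *Dusp9* and *Lrig1* were higher there, at 1.33 and 0.63, and *Fgfr1* and *Elf5* lower, at −0.75 and −0.72. Again 9 of the 75 genes were higher and 3 lower, where 1.52% and 1.45% of all probes were. In −LH siPINC cells 0 of the 75 genes were called by limma, where 0% of all probes were.

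Across the 9 group means, the members fell into patterns of unequal likeness. As a description over points that share arrays and normalization, Pearson's r was 0.99 between *Spred2* and *Dusp6*, 0.97 between *Spred2* and *Etv5*, 0.96 between *Etv5* and *Dusp6* and also between *Etv4* and *Dusp6*, and 0.92 between *Etv4* and *Dusp4*. It was 0.70 between *Etv5* and *Dusp4* and −0.69 between *Spry1* and *Spry2*. Among 11174 other genes well above background on all arrays, the pattern of *Dusp4* was most like those of *Bri3bp* (r = 0.995), *Carhsp1* (0.994), *1110038B12Rik* (0.993), *Fut10* (0.992) and *Cibar1* (0.992). The pattern of *Etv5* was most like those of *Cdc25b* (0.992), *Zfp52* (0.991), *Got2* (0.986), *Cep152* (0.985) and *Cdkn2d* (0.985).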

How the data were processed

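RNA of HC11 cells was measured on 24 Agilent 1-colour arrays, 1 per culture, called biological replicates in the methods. The authors deposited intensity values of Agilent Feature Extraction 11.0.1.1, background-corrected within arrays and not normalized between them, and a series matrix of quantile-normalized log2 values, used as an alternative. Processed signals of 59305 spots, control spots excluded, were log2-transformed and quantile normalized together. Outlier spots, 146 to 644 per array, were then left out, and spots of a probe were averaged, giving 55681 probes, of which 26582 had a symbol through their RefSeq accession. There were 0 saturated spots, and probes near background stayed in.

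The comparisons used limma (version 3.58.1, R 4.3.3) without covariates, in separate fits of the 6 −LH siRNA, 9 +LH siRNA and 9 LeGO arrays, and of all 15 siRNA arrays for the hormone response and the interaction. P-values were adjusted by Benjamini-Hochberg over all probes, with a threshold of 0.05. The alternatives, the methods' t-test among them, were also judged by an adjusted p under 0.05. The study's own thresholds on p and fold change were not applied. The number of arrays limits the precision. Alternatives were 75th percentile normalization, quantile normalization within a fit, normexp with an offset of 50, bright probes only, a trended robust prior, the methods' t-test, a joint fit of all arrays, also with slide as a term, the arrays of 1 slide, a replicate block, the series matrix, the mean of a gene's probes, and leaving out each array in turn. The fits were tested on simulated data. All members are named. Of each list, up to 4 genes per comparison are named, those with the largest change among called genes well above background on every array of a group. The members, lists and motifs were chosen with earlier results of these data known.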

Additional observations from a re-analysis of the deposited data

Results flagged for a closer look

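Between −LH and +LH cells, *Etv5* differed in its response to siPINC1.0/1.6 by 1.72 on the log2 scale (interaction term in limma, adjusted p = 0.000119), and *Dusp6* by 0.93 (adjusted p = 0.000124). *Etv5* was lower than in siNEG on both −LH arrays and higher on all 3 +LH arrays. *Dusp6* was also lower on both −LH arrays, with an effect of −0.36 that missed the threshold on its own, and higher on all 3 +LH arrays.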

How the results depend on the processing

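Of 1890 fold changes recomputed for the 9 usable genes, 1797 kept their direction or stayed uncalled, on the same side of the threshold, 65 lost the call, 28 gained it and 0 reversed a call. Of 210 counts of members called, 20 moved by over 1.5 times. In siPINC1.0/1.6 −LH cells 0 genes, in place of 3, were called with 75th percentile normalization, the methods' t-test, the series matrix and the replicate block. In siPINC −LH cells 1 gene, in place of 0, was called with normexp and in a joint fit of all arrays, also with slide as a term. Between the siRNA sets in −LH cells 2 genes, in place of 0, were called with normexp, bright probes only and a trended robust prior, and 1 in each joint fit. Between the sets in +LH cells 0, in place of 3, were called with the t-test and the replicate block. The siPINC interaction called 1, in place of 0, with the trended prior. Leaving out 1 array gave 0 to 0 genes in the 3 −LH comparisons, 3 to 4 for siPINC1.0/1.6 and 0 to 0 for siPINC in +LH cells, 3 to 3 between the sets, 7 to 8 for LeGO-1.0/1.6 against LeGO-GFP and against LeGO-DCR, 0 to 0 for LeGO-DCR, 6 to 7 for the hormone response, and 2 to 3 and 0 to 1 for the siPINC1.0/1.6 and siPINC interactions. Over all probes, the calls ranged over the alternatives from 0 to 5761 (main analysis 1650) for siPINC1.0/1.6, 0 to 902 (0) for siPINC and 0 to 2755 (10) between the sets in −LH cells. In +LH cells they ranged from 733 to 3904 (2140), 1 to 1103 (379) and 0 to 1423 (509), for LeGO-DCR from 0 to 79 (41), for the hormone response from 8958 to 15901 (15115), and for the siPINC1.0/1.6 and siPINC interactions from 1024 to 2565 (1778) and 4 to 656 (280). Samples share only a replicate number: in no comparison with 3 pairs was the correlation of every same-numbered pair over 0.1. In −LH cells, with 2 arrays per group, the 2 pairs of a comparison are equal by construction and count as 1 value. That value was 0.141 for siPINC1.0/1.6 against siNEG and 0.121 for siPINC1.0/1.6 against siPINC. The correlations ran from −0.458 to 0.246, and for LeGO-DCR against LeGO-GFP all 3 were above 0, the lowest at 0.0705. With the replicate block, 6 members were called in the hormone response, 3 for siPINC1.0/1.6 in +LH cells, 8 for LeGO-1.0/1.6 against each LeGO control and 2 in the siPINC1.0/1.6 interaction. Some called log2 fold changes shrank by over 1.5 times with normexp: for LeGO-1.0/1.6 against LeGO-DCR to 0.98 from 1.98 for *Etv1* (0.99 as the mean of its probes), to 1.29 from 2.77 for *Spred2* and to 0.15 from 0.44 for *Spry2* (0.27 with the series matrix), for siPINC1.0/1.6 in +LH cells to 0.78 from 1.33 for *Dusp4*, between the sets in +LH cells to 0.54 from 0.87 for *Etv4* (1.55 as the mean of its probes), and in the hormone response to −0.28 from −0.47 for *Spry2*. The causes were not tested. The 2 arrays per −LH group, and signals near background for *Spry4*, *Etv1* and *Spred2*, limit these values.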
